A study of Arabidopsis thaliana with 28 samples.

Results

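In total, 5 marker genes of the salicylic acid defence response of Arabidopsis thaliana were followed through 14 genotypes: PR1 (266385_AT), PR2 (251625_AT), PR5 (259925_AT), LURP1 (265837_AT) and WRKY70 (251705_AT). They are 5 of the 22747 probe sets measured, and were chosen by gene name, with earlier results of these data known. The pairing of each probe set with its gene is part of that choice, and all 5 names were found in the RefSeq gene table. Whole shoots of untreated Col-0 plants aged 3 weeks were harvested 4 h after the onset of a 12 h light period at 20 °C, with 14 plants pooled per replicate and 1 expression array per pool. The 28 arrays made up 14 groups of 2 biological replicates, and no group was treated. Wild type was measured beside the single mutants bam7 and bam8, the double mutant bam7 bam8, and 10 genotypes with Ox in their label. These 10, here called overexpression lines, were BAM7_Ox, BAM8_Ox and the lines of each protein with the suffix DNA, Cat, Lig or N. The labels do not define the suffixes, and the promoter and the number of transformants behind each line are not given in the sources used here. BAM7 and BAM8 are nuclear proteins that join a beta-amylase-like domain to a DNA-binding domain like that of the BZR1 family of brassinosteroid response factors, and the series asks what the enzyme-like domain contributes to DNA recognition and to activating transcription.

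Salicylic acid is the plant hormone that accumulates when leaves are attacked by pathogens feeding on living tissue. The coactivator NPR1 and its TGA partners pass the signal to target genes, among them WRKY transcription factors. WRKY70 is one of these factors and acts between the salicylic acid and the jasmonate pathways. LURP1 was named for its late rise during infection by the downy mildew pathogen and is needed for full basal resistance. PR1, PR2 and PR5 encode secreted proteins and are the standard transcript markers of the response. PR2 is a beta-1,3-glucanase that cleaves callose and fungal wall glucans, PR5 is a thaumatin-like protein, and PR1 belongs to a family of cysteine-rich secreted proteins. In the RefSeq gene table PR1 and LURP1 lie near each other, with 7 annotated genes between them, of which 1 codes for a protein (PRB1, a basic relative of PR1) and 5 are pseudogenes.

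All levels are deposited intensities on a linear scale, and differences are on the log2 scale. The arrays had medians between 23.5 and 25.8 intensity units, and their 25th percentiles ranged from 6.78 to 8.37, with the lowest 4 on the first replicates of BAM7_Ox, bam7 and BAM8-Lig_Ox and on the second of BAM8-DNA_Ox. Between the pools of BAM7-Cat_Ox, 254 probe sets lay over 2-fold apart, while each of the other 13 groups had 6 to 78 such probe sets. All 5 genes were well within the measured range on every array: the lowest value of any of them, that of PR2 in BAM8-DNA_Ox, lay at the 62.4th percentile of its array. Gene names were at hand for these 5 probe sets alone, so the levels of BAM7 and BAM8, markers of shoot tissue and the other genes of the salicylic acid pathway were not read by name. In whole shoots, fewer expressing cells and less RNA per cell cannot be told apart.

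Across the 14 groups, PR5, LURP1 and WRKY70 differed between genotypes beyond the spread of replicate pools, whereas PR1 and PR2 did not pass the same test. The moderated F test of limma over all groups called 3 of the 5 genes at an adjusted p under 0.05, where 6.15% of all 22746 probe sets tested were called. PR5 gave an F of 17.3 (adjusted p 4.62e-05), LURP1 10.2 (adjusted p 0.000893) and WRKY70 7.89 (adjusted p 0.00329), and each was called in all 36 alternatives. PR1 gave 3.48 (adjusted p 0.0907) and PR2 3.90 (adjusted p 0.0636). Both passed the F test without the third of probe sets of lowest mean level, where fewer are tested (adjusted p 0.0399 and 0.0256). The group means of PR1 spanned 5.16-fold and those of PR2 4.84-fold, against 5.60-fold for LURP1, 5.96-fold for PR5 and 2.15-fold for WRKY70. Their replicates also lay farther apart, with a pooled SD of 0.60 for PR1 and 0.55 for PR2, both above that of 99.9% of probe sets. The pooled SD was 0.36 for LURP1, 0.28 for PR5 and 0.18 for WRKY70, against a median of 0.14 over all probe sets. PR1 passed the F test without either replicate of BAM8-Lig_Ox (adjusted p 0.0305 and 0.0369), the group in which its replicates differed most. PR2 passed it too without either of these arrays (0.0443 and 0.0421), without BAM7-Lig_Ox replicate 1 (0.0318) and without BAM7-Cat_Ox replicate 1 (0.0479).

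**Figure D1:**
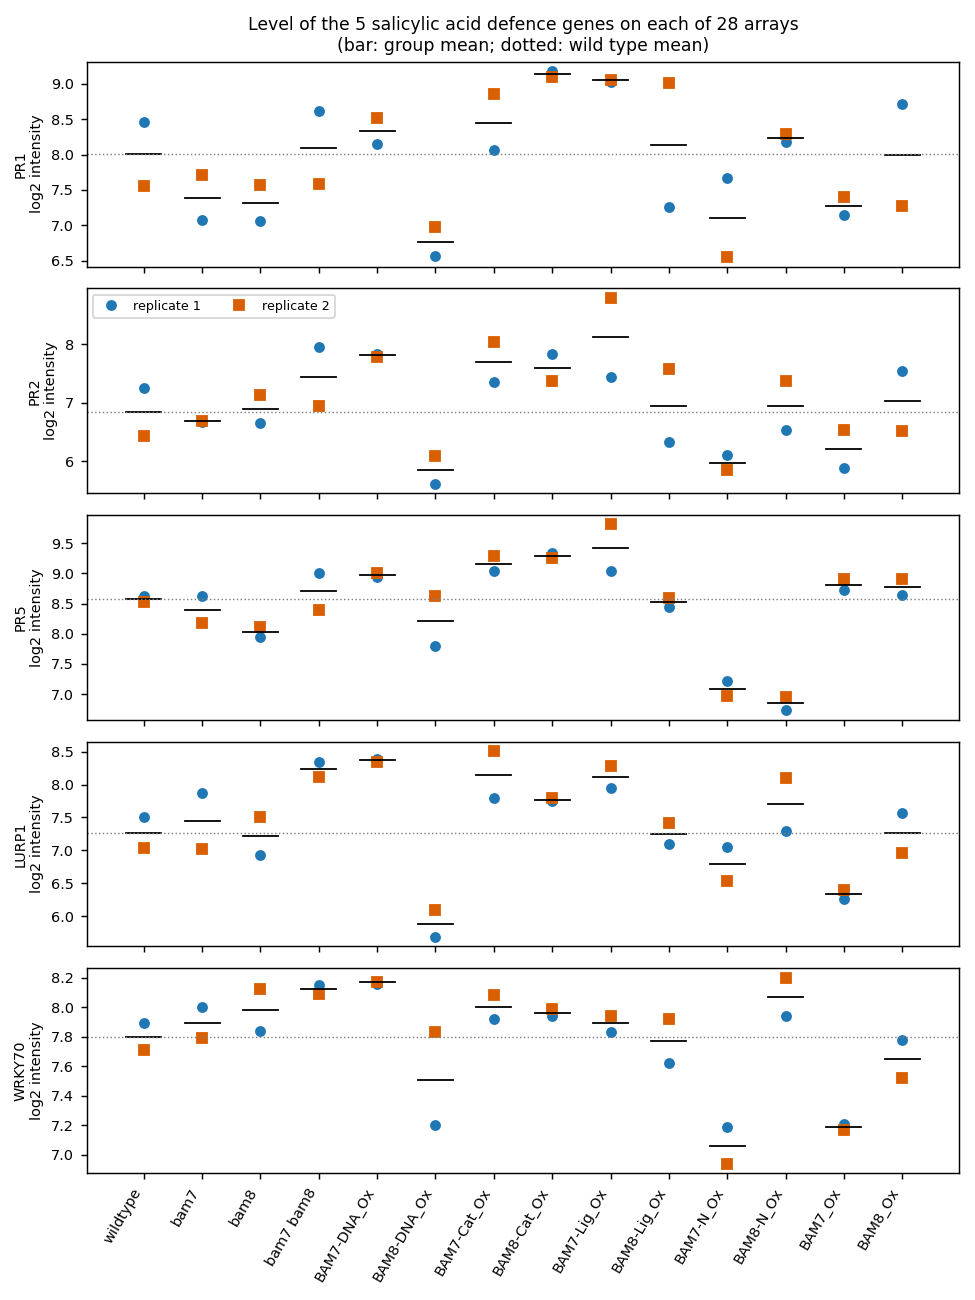
Level of each gene (log2 intensity, vertical axis, a separate scale per gene) on each of the 28 arrays, by group, with circles for replicate 1, squares for replicate 2, a bar at the group mean and a dotted line at the wild type mean. PR5 is lowest on the 4 arrays of both N lines, LURP1 is lowest in BAM8-DNA_Ox and BAM7_Ox, and the replicates of PR1 and PR2 lie far apart in several groups.

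WRKY70, the transcription factor of the set, had the narrowest range, from 122.4 to 295.0 units. It was low in BAM7-N_Ox, at 146.1 and 122.4 units, and in BAM7_Ox, at 147.9 and 143.8 units, against 237.6 and 209.1 units in wild type. The replicates of BAM8-DNA_Ox split, at 146.9 and 226.8 units. These were the only groups with an array below the 183.9 units of BAM8_Ox replicate 2. BAM8_Ox stood at 220.3 and 183.9 units, BAM8-Lig_Ox at 196.3 and 242.0, BAM7-Lig_Ox at 227.7 and 246.1, and BAM8-Cat_Ox at 244.9 and 254.3. The mutants reached 255.6 and 221.2 units in bam7, 229.1 and 277.4 in bam8, and 284.8 and 272.0 in bam7 bam8. The remaining lines were among the highest, with 242.0 and 271.1 units in BAM7-Cat_Ox, 245.7 and 295.0 in BAM8-N_Ox, and 285.6 and 289.0 in BAM7-DNA_Ox. Most neighbours in this order could not be separated: the largest step between neighbouring group means was 0.32, from BAM7_Ox up to BAM8-DNA_Ox, and none of the 13 steps exceeded 2 standard errors.

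LURP1 ranged from 51.28 to 363.9 units. It was lowest in BAM8-DNA_Ox, at 51.28 and 67.90 units, followed by BAM7_Ox at 76.71 and 84.02 and BAM7-N_Ox at 132.5 and 92.77. The arrays of BAM8-DNA_Ox and BAM7_Ox lay below all others. Wild type gave 182.7 and 131.2 units, with values near it in bam8 (121.9 and 180.7), bam7 (234.2 and 129.4), BAM8_Ox (190.2 and 124.2) and BAM8-Lig_Ox (136.6 and 169.9). BAM8-N_Ox had 157.0 and 275.3 units and BAM8-Cat_Ox 215.1 and 221.0. The highest 4 groups were BAM7-Lig_Ox at 245.1 and 310.1 units, BAM7-Cat_Ox at 222.6 and 363.9, bam7 bam8 at 324.8 and 278.2, and BAM7-DNA_Ox at 336.2 and 324.7. Both arrays of BAM7-DNA_Ox lay above those of BAM7-Lig_Ox. The steps between neighbouring means were at most 0.47, and none of the 13 exceeded 2 standard errors.

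PR5 was the gene with the clearest break in its order. The thaumatin-like gene stood at 106.3 and 124.9 units in BAM8-N_Ox and at 148.0 and 125.4 in BAM7-N_Ox, while the 24 other arrays ran from 222.0 to 897.6 units. All 4 arrays of the N lines thus lay below all others, a pattern that 0.426% of probe sets showed, and the other 4 genes did not. The step of 0.94 from BAM7-N_Ox up to the next group, bam8, was the only one of the 13 above 2 standard errors. Above the N lines, PR5 ran from bam8 (245.5 and 277.2 units), BAM8-DNA_Ox (222.0 and 396.6) and bam7 (394.6 and 288.6) through BAM8-Lig_Ox (349.0 and 385.5) to wild type (393.8 and 368.0). The groups bam7 bam8 (511.4 and 337.3), BAM8_Ox (399.9 and 480.7), BAM7_Ox (421.3 and 477.5) and BAM7-DNA_Ox (490.0 and 512.3) followed. The highest were BAM7-Cat_Ox (525.6 and 623.1), BAM8-Cat_Ox (643.2 and 608.6) and BAM7-Lig_Ox (525.5 and 897.6). PR5 was thus not low in BAM7_Ox, the line in which WRKY70 and LURP1 were.

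PR1 ranged from 93.77 to 578.9 units and was lowest in BAM8-DNA_Ox, at 94.83 and 125.4 units. It was highest in BAM8-Cat_Ox, at 578.9 and 547.4 units, and in BAM7-Lig_Ox, at 524.4 and 533.7 units. The replicates lay far apart in several other groups: wild type had 353.2 and 187.2 units, BAM8_Ox 418.6 and 155.1, BAM8-Lig_Ox 153.4 and 515.2, bam7 bam8 392.6 and 191.9, and BAM7-N_Ox 203.5 and 93.77. The single mutants had 134.1 and 209.9 units (bam7) and 133.1 and 189.8 (bam8), and BAM7_Ox had 142.5 and 168.8. BAM7-DNA_Ox had 284.4 and 367.2 units, BAM7-Cat_Ox 267.1 and 460.5, and BAM8-N_Ox 289.9 and 314.0. PR1 in one wild type pool was 1.89-fold that in the other, and the arrays of 9 of the 13 other groups overlapped those of wild type.

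PR2, the beta-1,3-glucanase, ranged from 48.73 to 445.5 units. Its lowest groups were BAM8-DNA_Ox (48.73 and 67.92 units), BAM7-N_Ox (68.91 and 57.22) and BAM7_Ox (59.10 and 92.67). Its highest were BAM7-Lig_Ox (174.2 and 445.5), BAM7-DNA_Ox (228.8 and 221.0), BAM7-Cat_Ox (163.0 and 263.2) and BAM8-Cat_Ox (227.5 and 166.5). Between them lay the remaining groups, with 152.3 and 86.38 units in wild type, 101.8 and 102.6 in bam7, 101.2 and 141.0 in bam8 and 247.1 and 122.7 in bam7 bam8. BAM8_Ox had 185.9 and 92.03 units, BAM8-Lig_Ox 79.97 and 189.7, and BAM8-N_Ox 92.70 and 165.0. None of the 13 steps between neighbouring means exceeded 2 standard errors for PR1 or PR2.

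Against wild type, the 13 other groups were tested for 5 genes each, and 3 of these 65 values passed, all falls in the N lines. PR5 fell in BAM7-N_Ox by 1.48 (2.79-fold, SE 0.256, 95% interval -2.02 to -0.94, adjusted p 0.00245, limma's moderated test), where 2.97% of all probe sets were called. PR5 fell in BAM8-N_Ox by 1.72 (3.30-fold, SE 0.256, 95% interval -2.26 to -1.19, adjusted p 0.000856), with 3.72% of all probe sets called. In both lines the arrays lay below those of wild type. The BAM8-N_Ox call was lost when only the 4 arrays compared were fitted (adjusted p 0.0608), and the BAM7-N_Ox call was kept in all 13 alternatives. WRKY70 fell in BAM7-N_Ox by 0.74 (1.67-fold, SE 0.168, adjusted p 0.0199). That call was lost without wild type replicate 1 (-0.64, adjusted p 0.186), without BAM7-N_Ox replicate 2 (-0.61, adjusted p 0.238), with the 25th percentile as a covariate (-0.73, adjusted p 0.0714) and with only these 4 arrays (adjusted p 0.105).

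In BAM8-N_Ox PR5 was the only one of the 5 genes called. PR1 gave 0.23 (95% interval -0.89 to 1.35), PR2 0.11 (-0.93 to 1.14), LURP1 0.43 (-0.25 to 1.10) and WRKY70 0.27 (-0.08 to 0.63) against wild type, none of them called. In BAM7-N_Ox all 5 genes had negative values: PR1 gave -0.90 (95% interval -2.02 to 0.23), PR2 -0.87 (-1.90 to 0.17) and LURP1 -0.48 (-1.16 to 0.19). Compared directly, WRKY70 was higher in BAM8-N_Ox than in BAM7-N_Ox by 1.01 (2.01-fold, SE 0.168, adjusted p 0.00411), in a comparison with 0.813% of probe sets called. The call was lost without BAM7-N_Ox replicate 2 (0.88, adjusted p 0.0866), without BAM8-N_Ox replicate 2 (0.88, adjusted p 0.0635) and with only these 4 arrays (adjusted p 0.253). PR5 gave -0.24 in the same comparison (95% interval -0.78 to 0.30, adjusted p 1), so that no difference between the N lines was detected for it. PR1 (1.13), PR2 (0.98) and LURP1 (0.91) were not called there either. The median of the 5 genes against wild type was -0.87 in BAM7-N_Ox and 0.23 in BAM8-N_Ox, beside medians of -0.05 and -0.06 over all probe sets.

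**Figure D2:**
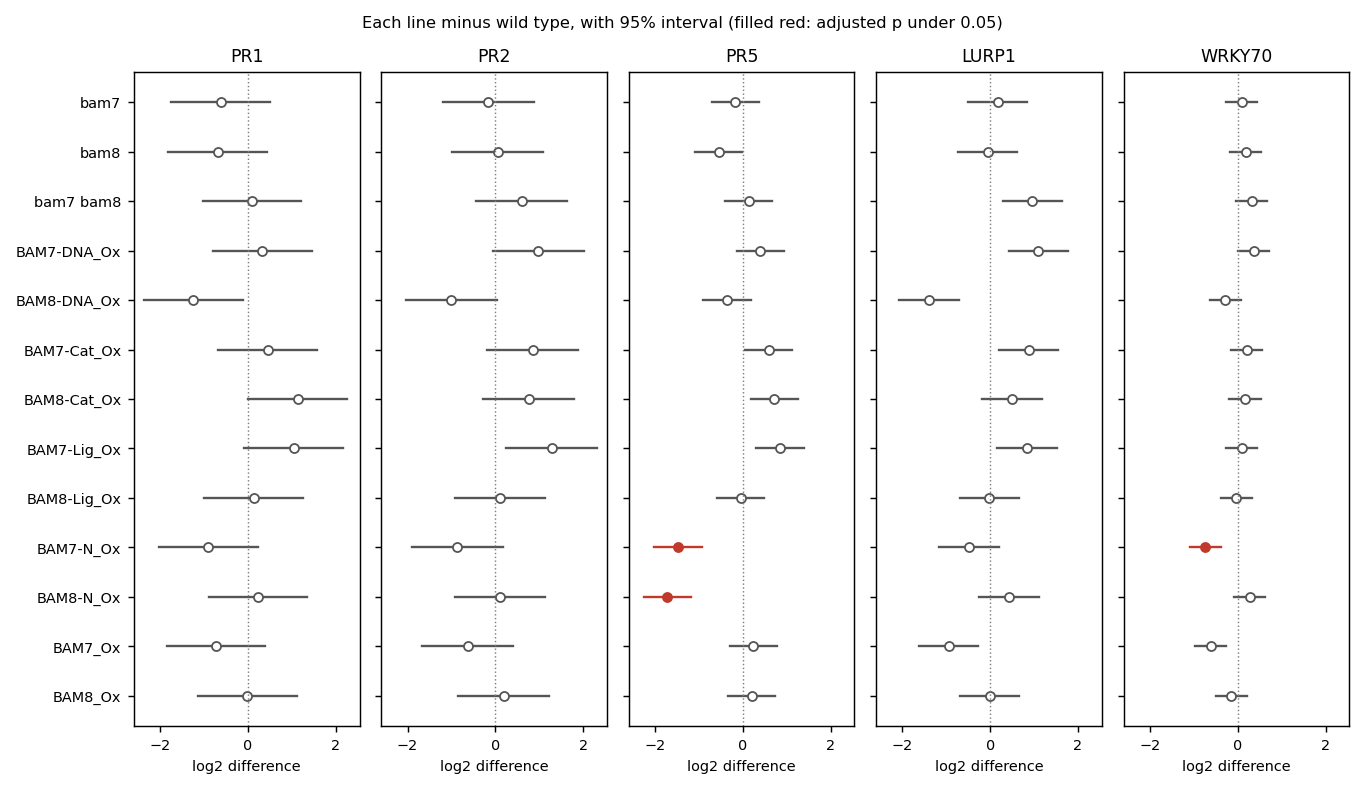
Difference of each line from wild type (log2, horizontal axis) for each gene, as a point with its 95% interval, filled red where the adjusted p was under 0.05. The 3 called values are PR5 in both N lines (-1.48 and -1.72) and WRKY70 in BAM7-N_Ox (-0.74); all lines share the same 2 wild type arrays.

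Loss of BAM7, of BAM8 or of both called none of the 5 genes. In bam7, PR1 gave -0.62 (95% interval -1.74 to 0.51) and the other 4 genes lay between -0.17 and 0.17, with 0.0572% of all probe sets called. In bam8, PR1 gave -0.69 (-1.82 to 0.43) and PR5 -0.55 (-1.08 to -0.01, adjusted p 0.779), with 0.0044% called. In bam7 bam8, LURP1 gave 0.96 (0.28 to 1.63, adjusted p 0.333), and 0.18% of probe sets were called. The 5 genes gave 15 values for the double mutant against each single mutant and for the interaction of both mutations, and limma called 0 of them, with 1 to 2 of 5 genes per comparison at an unadjusted p under 0.05. Of all probe sets, 6.16% were at that unadjusted p against bam7, 7.08% against bam8 and 8.16% for the interaction, and 0.0747%, 0.136% and 0.0484% were called. The intervals were wide: the interaction was 1.40 for PR1 (95% interval -0.18 to 2.99) and 0.85 for LURP1 (-0.11 to 1.80).

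The DNA, Cat and Lig lines also had no called value against wild type. In BAM8-DNA_Ox, LURP1 gave -1.39 (95% interval -2.07 to -0.72, adjusted p 0.11) and PR1 -1.24 (-2.36 to -0.12), and LURP1 passed only without wild type replicate 2 (-1.63, adjusted p 0.04). BAM7-DNA_Ox gave 1.09 for LURP1 (0.42 to 1.77) and 0.97 for PR2 (-0.06 to 2.01). Of all probe sets, 0.0528% and 0.141% were called in these comparisons.

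All 5 genes had positive values in both Cat lines and in BAM7-Lig_Ox, and also in bam7 bam8 and BAM7-DNA_Ox. In BAM8-DNA_Ox and BAM7-N_Ox all 5 were negative. These shared signs rest on the same 2 wild type arrays, and how often other sets of probe sets share a sign was not counted. BAM8-Cat_Ox gave 1.13 for PR1 (95% interval 0.01 to 2.25, adjusted p 0.513) and 0.72 for PR5 (0.18 to 1.26), where 0.594% of all probe sets were called. BAM7-Cat_Ox gave 0.88 for LURP1 (0.20 to 1.55) and 0.85 for PR2 (-0.18 to 1.89), with 0.0659% called. BAM7-Lig_Ox gave 1.28 for PR2 (0.25 to 2.31), 1.04 for PR1 (-0.08 to 2.16) and 0.85 for PR5 (0.31 to 1.39), with 0.0264% called. BAM8-Lig_Ox gave values between -0.05 and 0.13, with 0.0308% called. Its PR1 value of 0.13 (95% interval -0.99 to 1.25) averages pools 3.36-fold apart, and the alternatives ran from -0.75 to 1.04 for PR1 and from -0.52 to 0.83 for PR2. The medians of the 5 genes were 0.72, 0.59, 0.85 and -0.02 in these 4 lines, and those of all probe sets lay between -0.04 and 0.02.

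In the unsuffixed lines no gene was called against wild type. In BAM7_Ox, LURP1 gave -0.95 (95% interval -1.62 to -0.27, adjusted p 0.27) and WRKY70 -0.61 (-0.97 to -0.26, adjusted p 0.2) against wild type. Neither was called in any of its 13 alternatives, and 0.0264% of all probe sets were called in this comparison. In BAM8_Ox all 5 genes lay between -0.15 and 0.20, again with none called, against 0.448% of all probe sets. BAM8_Ox minus BAM7_Ox gave 0.94 for LURP1 (adjusted p 0.32) and 0.46 for WRKY70 (adjusted p 0.358), where 0.374% of probe sets were called.

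Each suffixed line was next set against BAM7_Ox or BAM8_Ox, whichever carries its protein, and 7 of the 40 values passed. Of the 7, 5 were rises of LURP1 and WRKY70 above BAM7_Ox, and all of these rest on the same 2 BAM7_Ox arrays. LURP1 rose in BAM7-DNA_Ox by 2.04 (4.12-fold, SE 0.321, adjusted p 0.00522), in BAM7-Cat_Ox by 1.83 (3.55-fold, adjusted p 0.00973) and in BAM7-Lig_Ox by 1.78 (3.43-fold, adjusted p 0.0295). WRKY70 rose in BAM7-DNA_Ox by 0.98 (1.97-fold, SE 0.168, adjusted p 0.00966) and in BAM7-Cat_Ox by 0.81 (1.76-fold, adjusted p 0.0232), and gave 0.70 in BAM7-Lig_Ox (adjusted p 0.106). Of all probe sets, 0.444% were called for DNA, 1.6% for Cat and 0.193% for Lig in these comparisons. All 5 genes had positive values and arrays above those of BAM7_Ox in each of the 3 lines, as did 14.7% of all probe sets for DNA, 39.2% for Cat and 27.7% for Lig. PR2 gave 1.60, 1.48 and 1.91 and PR1 1.06, 1.18 and 1.77 for DNA, Cat and Lig, none of them called. PR2 in BAM7-DNA_Ox passed when only these groups were fitted (adjusted p 0.0318). In BAM7-Lig_Ox PR2 passed without BAM7-Lig_Ox replicate 1 (2.59, adjusted p 0.0467) and gave 1.24 without replicate 2. The medians of the 5 genes were 1.06, 1.18 and 1.77, those of all probe sets 0.02, 0.07 and 0.04.

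These calls were lost under several alternatives. Both BAM7-Cat_Ox calls were lost with array weights (adjusted p 0.123 for LURP1 and 0.196 for WRKY70), with the 25th percentile as a covariate (0.168 and 0.208) and with only the groups compared (0.45 for each). LURP1 in BAM7-Lig_Ox was lost with the covariate (0.111) and with only the groups compared (0.101). They also depended on single arrays of BAM7_Ox, whose replicate 1 was among the 4 arrays with the lowest 25th percentile. Without BAM7_Ox replicate 1, the 7 calls became 2, and all 5 calls of LURP1 and WRKY70 were lost, with adjusted p from 0.0709 to 0.198. Without BAM7_Ox replicate 2, 4 remained. Without the 4 arrays of lowest 25th percentile 3 of the 7 values were called. The differences themselves moved little: LURP1 was 1.98, 1.76 and 1.71 above BAM7_Ox replicate 2 alone in the DNA, Cat and Lig lines, and WRKY70 was 1.00 and 0.83 above it in the DNA and Cat lines. LURP1 in BAM7-Cat_Ox was 1.47 without BAM7-Cat_Ox replicate 2 (adjusted p 0.0768). The calls were also lost without BAM7-DNA_Ox replicate 2 for LURP1 (adjusted p 0.0642) and without either BAM7-DNA_Ox replicate for WRKY70 (0.0625 and 0.118). LURP1 in BAM7-Lig_Ox lost its call without BAM7-Lig_Ox replicate 2 (1.61, adjusted p 0.139) and without BAM7_Ox replicate 2 (0.113). WRKY70 in BAM7-DNA_Ox and BAM7-Cat_Ox lost its call without BAM7_Ox replicate 2 (0.0861 and 0.0743), and in BAM7-Cat_Ox without BAM7-Cat_Ox replicate 2 (0.115).

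The remaining 2 of the 7 calls were falls of PR5 in the N lines, by 1.72 below BAM7_Ox (3.29-fold, SE 0.256, adjusted p 0.000608) and by 1.93 below BAM8_Ox (3.81-fold, SE 0.256, adjusted p 0.000419). Of all probe sets, 3.09% and 1.68% were called in these comparisons. The first held in all 13 alternatives, and the second was lost only when the 4 arrays were fitted alone (adjusted p 0.222). For the BAM8 lines no other value was called: LURP1 in BAM8-DNA_Ox gave -1.38 against BAM8_Ox (95% interval -2.06 to -0.71, adjusted p 0.0553), with 0.73% of probe sets called. It passed without the third of probe sets of lowest level (0.0269), with a variance trend and robust estimation (0.03) and without the BAM7-Cat_Ox group (0.0416). BAM8-Cat_Ox gave 1.14 for PR1 (adjusted p 0.731) and BAM8-Lig_Ox gave values between -0.26 and 0.14 for the 5 genes, with 0.106% and 0.813% called.

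**Figure D3:**
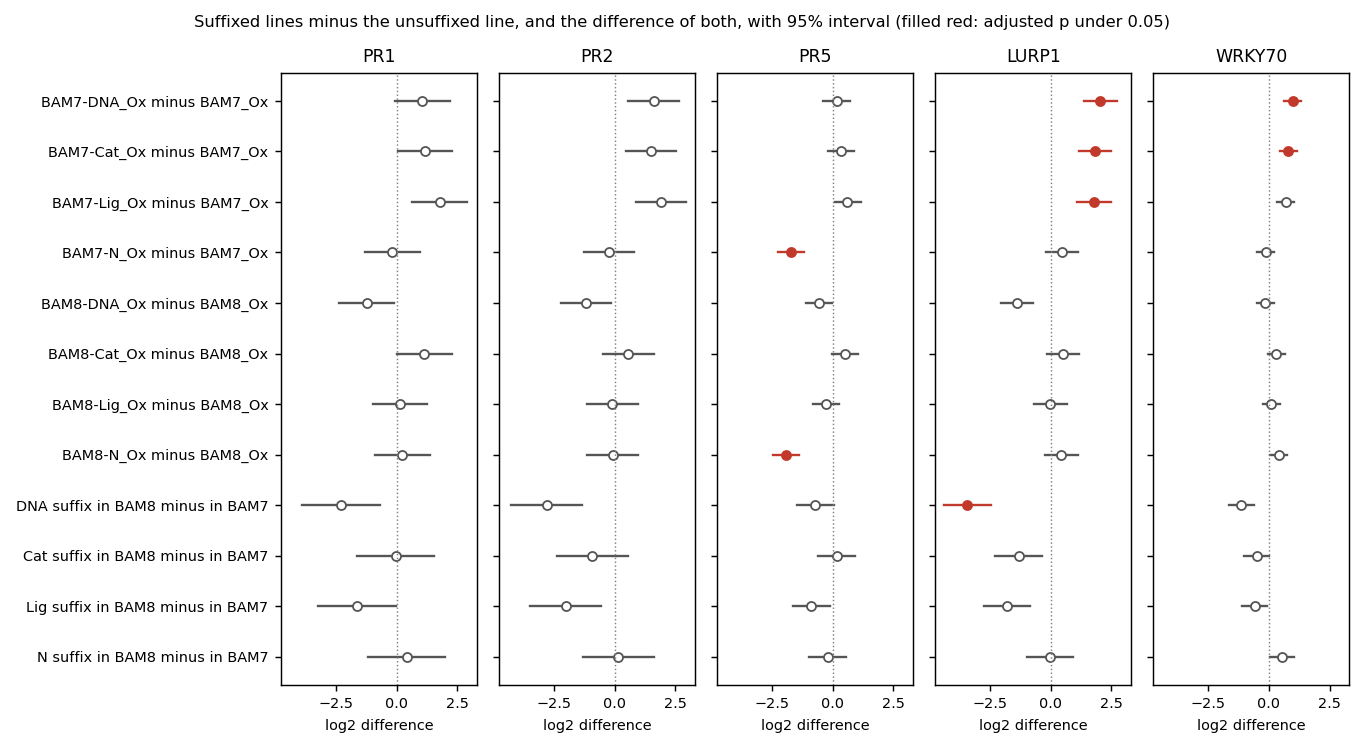
Difference of each suffixed line from its unsuffixed line, and the difference of that difference between BAM8 and BAM7 (log2, horizontal axis), for each gene as a point with its 95% interval, filled red where the adjusted p was under 0.05. LURP1 stands at 2.04, 1.83 and 1.78 in the DNA, Cat and Lig lines of BAM7, PR5 at -1.72 and -1.93 in both N lines, and the DNA suffix differs between the proteins by -3.42 for LURP1.

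The DNA lines of both proteins stood at opposite ends of the order for LURP1. LURP1 was lower in BAM8-DNA_Ox than in BAM7-DNA_Ox by 5.60-fold (-2.49, SE 0.321, 95% interval -3.16 to -1.81, adjusted p 0.000913), a comparison in which 0.347% of probe sets were called. This call held in all 13 alternatives and shares no array with the unsuffixed lines. Both arrays of BAM8-DNA_Ox lay below those of BAM7-DNA_Ox for all 5 genes, as they did for 16.7% of all probe sets, with PR2 at -1.97 (adjusted p 0.106), PR1 at -1.57 (0.325), PR5 at -0.76 (0.321) and WRKY70 at -0.65 (0.122), none of them called. PR2 passed there when only these groups were fitted (adjusted p 0.0182), and WRKY70 passed without BAM8-DNA_Ox replicate 2 (-0.97, adjusted p 0.0209), an array of low 25th percentile. The test of whether the difference between suffixed and unsuffixed line was the same in both proteins gave, for the DNA suffix, -3.42 for LURP1 (SE 0.454, 95% interval -4.38 to -2.47, adjusted p 0.00181), called in all 17 alternatives, with 0.264% of probe sets called. The same difference was -1.12 for WRKY70 (adjusted p 0.0598), which passed without BAM8-DNA_Ox replicate 2 (-1.43, adjusted p 0.00848). It was -2.79 for PR2 (adjusted p 0.125), -2.28 for PR1 (adjusted p 0.275) and -0.72 for PR5 (adjusted p 0.527).

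For the other suffixes no gene of the 5 was called in the test between proteins. The Lig suffix gave -1.79 for LURP1 (95% interval -2.75 to -0.84, adjusted p 0.0914), -1.63 for PR1 and -0.87 for PR5, with 0.519% of all probe sets called. The Cat suffix gave -1.32 for LURP1 (adjusted p 0.349), with 0.0044% called, and the N suffix gave -0.21 for PR5 (95% interval -0.97 to 0.55), with 0.55% called. The direct comparisons of BAM8-Cat_Ox with BAM7-Cat_Ox (1.51% of probe sets called) and of BAM8-Lig_Ox with BAM7-Lig_Ox (0.215%) called none of the 5 genes either. PR5 was -0.90 in the latter (95% interval -1.44 to -0.37, adjusted p 0.189) and passed without BAM7-Lig_Ox replicate 1 (-1.29, adjusted p 0.0497). Averaged over 5 lines each, BAM8 minus BAM7 was 0.01 for PR1 (95% interval -0.49 to 0.51) and 0.13 for WRKY70 (-0.03 to 0.29). It was -0.36 for PR5 (adjusted p 0.13) and -0.38 for LURP1 (adjusted p 0.217), against 1.87% of all probe sets called. PR5 passed in this comparison without BAM8-DNA_Ox replicate 2 (-0.44, adjusted p 0.0433) and without BAM7-Lig_Ox replicate 1 (-0.44, adjusted p 0.0461).

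The 5 genes often differed in the same direction between pools of one genotype. In 9 of the 14 groups all 5 genes were higher in the same pool, replicate 1 in 3 groups and replicate 2 in 6. How often 5 other probe sets do so was not counted, and whether shifts of whole arrays play a part was not tested. In wild type replicate 1 was higher by 0.92 for PR1, 0.82 for PR2, 0.48 for LURP1, 0.18 for WRKY70 and 0.10 for PR5. The widest gap was that of PR1 in BAM8-Lig_Ox, 1.75 or 3.36-fold, followed by PR1 in BAM8_Ox, 1.43 or 2.70-fold, and PR2 in BAM7-Lig_Ox, 1.35 or 2.56-fold. Over all probe sets, 64 differed by more than 2-fold between the pools of BAM8-Lig_Ox and 54 between those of BAM8_Ox, and BAM8-Lig_Ox replicate 1 had the lowest 25th percentile of the 28 arrays (6.78). The smallest gaps were in BAM7-DNA_Ox, where the median over the 5 genes was 0.05. For BAM7-Cat_Ox, in which the most probe sets differed between pools, the 5 genes differed by 0.16 to 0.79, all higher in replicate 2.

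**Figure D4:**
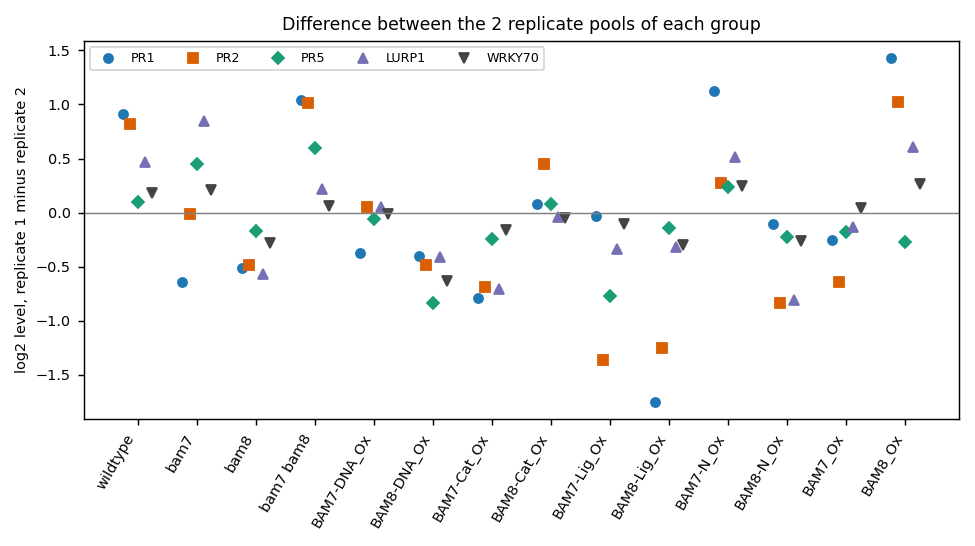
Level in replicate 1 minus level in replicate 2 (log2, vertical axis) for the 5 genes in each of the 14 groups, with a marker per gene. In 9 groups all 5 markers lie on the same side of 0, and the widest gaps are those of PR1 in BAM8-Lig_Ox (1.75) and BAM8_Ox (1.43).

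Among the group means, PR2 had the highest correlations with LURP1 and PR1. These values describe the 14 group means; the genes share arrays and normalization. PR2 correlated with LURP1 at r = 0.92 (Spearman rho 0.87) and with PR1 at r = 0.90 (rho 0.90). LURP1 correlated with WRKY70 at r = 0.80 (rho 0.83) and with PR1 at r = 0.79 (rho 0.82). Without the 2 groups farthest from the median of a single gene of the pair, these 4 values were 0.90, 0.89, 0.77 and 0.77. That gene was PR2, PR1, LURP1 and PR1 in turn. PR5 gave r = 0.62 with PR2 (rho 0.71), r = 0.36 with LURP1 (rho 0.54) and r = 0.28 with WRKY70 (rho 0.18). Without the N lines, the groups in which PR5 was lowest, these values were 0.74, 0.59 and 0.20. PR1 and PR5 gave r = 0.54 (rho 0.65) over 14 groups and 0.86 without the N lines. Among replicate 1 arrays alone PR2 and LURP1 gave 0.89, and among replicate 2 arrays 0.85. Over the replicate differences, which hold no genotype effect, LURP1 and WRKY70 gave 0.82, PR1 and PR2 0.78 and PR2 and LURP1 0.72. PR5 and WRKY70 gave 0.65, and the lowest value was 0.28 for PR1 and PR5. Such values were not computed for pairs of probe sets at large.

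**Figure D5:**
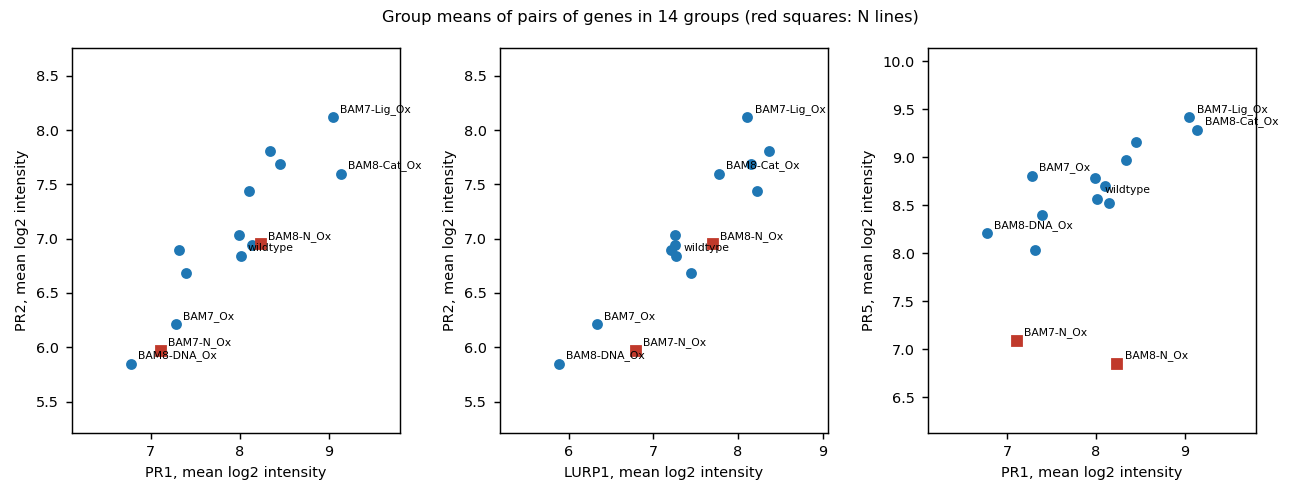
Mean log2 intensity of one gene against another in the 14 groups (each point the mean of 2 arrays; red squares are the N lines), for PR1 and PR2, LURP1 and PR2, and PR1 and PR5. The first and second pair follow one line (r = 0.90 and 0.92), while PR5 falls away from PR1 in both N lines (r = 0.54 with them and 0.86 without).

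Among all 22745 other probe sets, PR2 was the one whose group means followed PR1 most closely and also the one that followed LURP1 most closely. For PR2, LURP1 had rank 2 and PR1 rank 4. WRKY70 had LURP1 at rank 17 and PR2 at rank 35. For PR5 the closest of the other genes was PR2, at rank 798. Outside the 5 genes, the probe set most like their standardized mean over the 14 groups was 248062_AT (r = 0.97), whose group means ran from 134 to 308 units, followed by 249754_AT (r = 0.92). Over the replicate differences these gave 0.73 and 0.69. Their genes are not named here.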

How the data were processed

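The authors deposited 1 intensity value per probe set and array on a linear scale, from 2.89 to 22277. Per the submitters' processing notes RMA was used; no version is stated, and the range of the values points to antilogged output, which no source states. Levels were put on the log2 scale, and 22746 probe sets were tested after 1 control probe set was left out; dim probe sets were kept. The 28 arrays entered a single linear model of the 14 group means (limma 3.58.1, R 4.3.3; 14 residual degrees of freedom, 3.67 added by limma). The moderated test was two-sided, for 34 contrasts, with Benjamini-Hochberg adjustment over all probe sets within a contrast and a threshold of 0.05. With 2 arrays per group the spread is pooled over groups, and the number of arrays limits the precision; detection calls are not used here. The 5 genes and the lists were chosen with earlier results of these data known. Gene lists of the pathway, fixed by locus, could not be applied, as probe sets could not be matched to loci here. The 5 genes were named always, and the probe sets most like them by the highest r over group means. Permutation p-values of the correlations were computed but are not printed, for the same reason. The fit was tested on simulated data. Alternatives were fitting just the groups in a comparison, testing 15164 probe sets after dropping the third of lowest mean, robust estimation with a variance trend, a block for the replicate number, array weights, cyclic loess, and leaving out each array; the 25th percentile of the arrays as a covariate, leaving out the 4 arrays lowest in it and leaving out BAM7-Cat_Ox were chosen after seeing the data. Arrays of one group left alone are assumed to vary like the others. Figures were drawn with matplotlib 3.10.9.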

Additional observations from a re-analysis of the deposited data

Results flagged for a closer look

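The difference of the DNA line from its unsuffixed line differed between the proteins for LURP1. BAM7-DNA_Ox was 2.04 above BAM7_Ox and BAM8-DNA_Ox gave -1.38 against BAM8_Ox, and the test of the difference itself gave -3.42 (SE 0.454, adjusted p 0.00181 by limma). It was the only called value among the 20 tests of a suffix between proteins for the 5 genes. The suffix, the individual line and the level of the transgene cannot be told apart here.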

How the results depend on the processing

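Leaving out each array in turn gave 3 to 5 genes called by the F test (3 with all arrays), 2 to 4 values against wild type (3), 2 to 8 against the unsuffixed lines (7), 1 to 4 between BAM8 and BAM7 forms (2), 0 for the combined mutations (0) and 1 to 2 for a suffix between proteins (1). The count against the unsuffixed lines was 2 without BAM7_Ox replicate 1 and 4 without BAM7_Ox replicate 2. That between forms was 1 without BAM7-N_Ox replicate 2 or BAM8-N_Ox replicate 2, and 4 without BAM8-DNA_Ox replicate 2 or BAM7-Lig_Ox replicate 1. With array weights 5 values were called against the unsuffixed lines. With only the groups compared, 1 value was called against wild type and 4 against the unsuffixed lines. Without the third of lowest level, where fewer probe sets are tested, the F test called 5 genes and 2 values passed for a suffix between proteins; a variance trend with robust estimation also gave 2. With the 25th percentile as a covariate, 4 values were called against the unsuffixed lines. Without the 4 arrays lowest in it, 3 were, and 2 passed for a suffix between proteins. The cause of these moves was not tested. The replicate number as a block left every count as it was (3, 3, 7, 2, 0 and 1). The labels do not say what a number shares. The replicate differences of 91 pairs of groups correlated from -0.38 to 0.43 across probe sets, with a median of 0.01. Of these pairs, 24 were above 0.1 and 20 under -0.1. The replicate number was therefore not treated as a pairing of arrays. A median near 0 cannot show whether arrays of different groups share something else, and that was not tested. No called value of the 5 genes changed sign in any alternative run; signs of values called in neither fit were not followed. Of 10 gene pairs, 8 had an r over 0.5 among group means, and 7 to 9 did over the arrays of one replicate number or the replicate differences.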
